A study of Mus musculus with 4 samples.

Results

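The small leucine-rich proteoglycans were followed in forelimb buds of mouse embryos with and without a conditional deletion of Smarcc1, which encodes a chromatin remodelling subunit. The 10 genes Lum, Dcn, Bgn, Fmod, Ogn, Kera, Prelp, Epyc, Aspn and Omd were taken by name and matched to Ensembl identifiers, and all 10 were found among the 35689 genes of the table. RNA came from the right and left forelimb of single E11.5 embryos. The 2 knockout embryos expressed Cre in the mesenchyme of the limb bud from PrxCre and were homozygous for a conditional Smarcc1 allele (PrxCre/+;Smarcc1c/c). The 2 control embryos carried the same conditional alleles without Cre (Prx+/+;Smarcc1c/c). Each genotype had 1 embryo of 40 somites (replicate 1) and 1 of 39 somites (replicate 2), and the stage coincided with sex, since Ddx3y, on the Y chromosome, was at 28.3 and 30.2 TPM (an abundance corrected for the length of the transcript and the size of the library) in the 39-somite embryos and at most 0.0498 TPM in the 40-somite embryos. A whole bud also holds ectoderm, blood and vessels, none of them part of that mesenchyme. Whether embryos shared a litter is not given in the sources used here.

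Small leucine-rich proteoglycans are secreted proteins built of leucine-rich repeats that bind collagen fibrils and set their diameter and spacing. Several also bind growth factors such as TGF-beta in the matrix. Most carry chondroitin, dermatan or keratan sulfate chains, and in limbs they are best known from tendon, dermis, cartilage and bone. Class I holds Dcn, Bgn and Aspn. Class II holds Lum, Kera, Fmod, Prelp and Omd. Class III holds Epyc and Ogn. The protein made from Smarcc1, BAF155, is a scaffold of the SWI/SNF (BAF) remodelling complex.

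The classes can be read from the spacing of 4 cysteine codons ahead of the leucine-rich repeats. The coding stretches below, from GENCODE transcripts on mm10, are those of the 5 members that were expressed well enough to be tested and of Ogn for class III, with the cysteine codons in capitals.
Bgn: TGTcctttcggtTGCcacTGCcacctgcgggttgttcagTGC
Dcn: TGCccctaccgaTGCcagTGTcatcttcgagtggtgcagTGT
Lum: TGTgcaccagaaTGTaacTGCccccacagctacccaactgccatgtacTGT
Kera: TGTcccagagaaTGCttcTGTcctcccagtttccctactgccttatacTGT
Fmod: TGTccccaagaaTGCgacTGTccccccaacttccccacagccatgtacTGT
Ogn: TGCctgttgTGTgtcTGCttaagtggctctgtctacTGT
In Bgn, Dcn and Aspn 3, 1 and 6 codons separated the cysteines. In Lum, Kera, Fmod, Prelp and Omd the last gap was 9 codons. In Ogn and Epyc the gaps were 2, 1 and 6. The stretch lay on the plus strand in exon 2 of Bgn (chrX:73490979-73491020), Dcn (chr10:97483507-97483548), Lum (chr10:97568353-97568403), Kera (chr10:97608907-97608957) and Fmod (chr1:134040449-134040499). In Ogn it lay in exon 4 (chr13:49615566-49615604), also on the plus strand. The transcripts of Lum shared 0.124% of their 31-base words with transcripts of other genes, and those of Kera and Fmod shared 0.

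Lum, which encodes lumican, a keratan sulfate proteoglycan that binds fibrillar collagen, rose in the knockout forelimbs and was the member that passed the test. Its level was 17.2 TPM in the mutant limbs of the 40-somite embryo and 18.2 TPM in those of the 39-somite embryo, against 6.91 and 7.23 TPM in control limbs. The groups did not overlap, and libraries of the same genotype lay close together. Both knockout libraries lay above both controls in 22.7% of all tested genes. The mean was 17.7 ± 0.767 TPM in the knockouts and 7.07 ± 0.230 TPM in the controls (SD, n = 2 each), a ratio of 2.50. On the log2(TPM + 1) scale the fold change was 1.21 ± 0.13 (SE, 2 embryos a group; adjusted p by limma = 0.0167). The knockout-to-control ratio was 2.48 in the 40-somite pair and 2.52 in the 39-somite pair. Lum ranked 68th by log2 fold change among the 104 genes called higher.

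Of the 10 members 5 reached the filter for testing, a minimum of 1 TPM in 2 or more libraries. Of these 5, 1 was called higher, 0 lower, and 4 did not pass, against 1.30% of all 12809 genes called in either direction and 0.812% called higher. With no adjustment 2 had a p under 0.05, Lum as 1 higher and Bgn as 1 lower gene, where 6.78% of all tested genes were higher and 6.89% lower, 13.7% in all. A count of 1 among 5 is too small to set against that share. The median log2 fold change of the 5 was 0.08, and that of all tested genes was 0.01. Lum's adjusted p in limma was 0.0584 without control replicate 1 and 0.0550 without control replicate 2, and 0.119 with no filter on low values, at log2 fold changes of 1.18, 1.24 and 1.21.

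**Figure D1:**
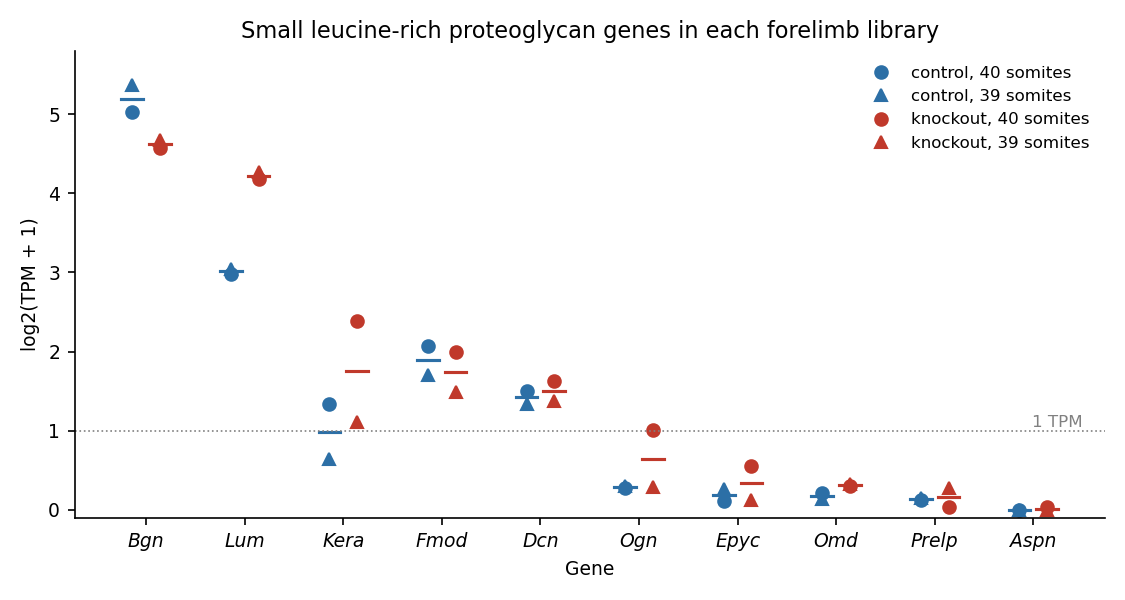
Level of each of the 10 genes in every library, as log2(TPM + 1), with circles for 40-somite and triangles for 39-somite embryos and short lines for genotype means. Lum stands at 17.2 and 18.2 TPM in the knockouts above 6.91 and 7.23 TPM in the controls, and 5 genes reach 1 TPM in at most 1 library.

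Among class I members Bgn was the most abundant gene of the family and did not pass the test. Bgn encodes biglycan, a proteoglycan of bone and connective tissue with chondroitin or dermatan sulfate chains. It stood at 22.7 and 24.6 TPM in mutant limbs, against 31.6 and 40.2 TPM in control limbs. Both knockout libraries lay below both controls, as did those of 21.2% of all tested genes, while in 43.9% the groups were apart in either direction. The means were 23.6 ± 1.36 and 35.9 ± 6.12 TPM (SD, n = 2 each). The log2 fold change was -0.57 ± 0.15 with a 95% interval from -0.93 to -0.22 (adjusted p by limma = 0.167). The ratio was 0.718 at 40 somites and 0.611 at 39. With somite stage added to the model as a block, limma's adjusted p was 0.0450, where 4.16% of all tested genes passed. The fold change ran from -0.40 without control replicate 2 to -0.74 without control replicate 1. Bgn lies on the X chromosome (73483602 to 73495933), and each genotype held 1 embryo of either sex.

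Dcn, which encodes decorin, the collagen-binding namesake of class I, was low in every library and showed no separation of the genotypes. It stood at 2.08 and 1.60 TPM in mutant limbs, against 1.83 and 1.54 TPM in control limbs. The groups overlapped, with the 40-somite library the higher one in both genotypes. The log2 fold change was 0.08 ± 0.18 with a 95% interval from -0.35 to 0.51 (adjusted p by limma = 0.909), so a rise of the size of Lum's lay outside the interval. Aspn, the class I gene for asporin, was listed at 0 in 3 libraries and at 0.0216 TPM in knockout replicate 1.

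Kera and Fmod, the other class II genes that were tested, did not pass. Kera encodes keratocan, known from the corneal stroma. It stood at 4.24 and 1.15 TPM in mutant limbs, against 1.52 and 0.565 TPM in control limbs. The groups overlapped, and the 40-somite library was the higher one in both genotypes. Within each stage the knockout was the higher library, by 2.79 times at 40 somites and 2.04 times at 39. The log2 fold change was 0.76 ± 0.44 with a 95% interval from -0.32 to 1.84 (adjusted p by limma = 0.539, and 0.110 with stage as a block). Without knockout replicate 2 the log2 fold change was 1.40, and without knockout replicate 1 it was 0.12.

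Fmod encodes fibromodulin, which binds collagen and is known from tendon. It stood at 2.999 and 1.81 TPM in mutant limbs, against 3.19 and 2.27 TPM in control limbs, and the groups overlapped. Again the 40-somite library was the higher one in each genotype. The log2 fold change was -0.14 ± 0.23 with a 95% interval from -0.71 to 0.42 (adjusted p by limma = 0.864). Omd, the gene for osteomodulin, stood at 0.229 and 0.252 TPM in mutant limbs, against 0.162 and 0.0977 TPM in control limbs, under the filter. Prelp stood at 0.0269 and 0.214 against 0.0954 and 0.112 TPM. Transcripts of Omd shared 5.43% of their 31-base words with other genes, and those of Prelp shared 8.998% with transcripts of the opposite strand, of the antisense gene Gm15851.

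The class III members were also under the filter. Ogn, which encodes osteoglycin (mimecan), stood at 1.01 and 0.218 TPM in mutant limbs, against 0.216 and 0.231 TPM in control limbs, so that knockout replicate 1 stood apart from the other 3 libraries. Epyc encodes epiphycan, known from growth cartilage. It stood at 0.471 and 0.0885 TPM in mutant limbs, against 0.0805 and 0.202 TPM in control limbs, and the groups overlapped. Epyc shared 40.0% of its 31-base words with transcripts of the opposite strand, of Gm10754, and whether the libraries kept strand is not given in the sources used here. Knockout replicate 1 was the highest library for Kera, Ogn, Epyc, Dcn and Aspn. The differences of Ogn, Epyc, Omd, Prelp and Aspn were not tested, and TPM keeps no record of the reads behind values this low.

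**Figure D2:**
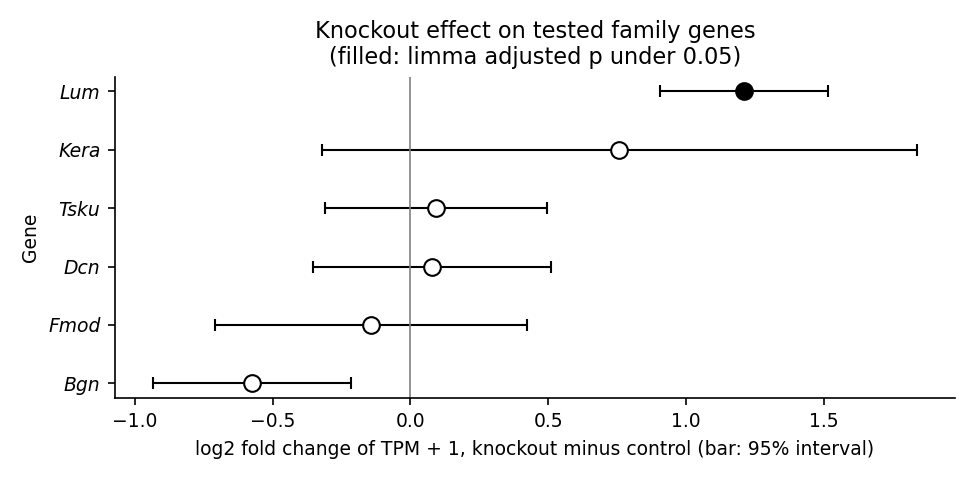
Log2 fold change of TPM + 1, knockout minus control, for the 5 tested members and Tsku, with 95% intervals from limma and filled points for an adjusted p under 0.05. Lum at 1.21 is the filled point, and the interval of Bgn, from -0.93 to -0.22, lies below 0 though the gene did not pass.

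The summed TPM of the 10 members was similar in the genotypes while its make-up differed. It came to 50.9 and 48.2 in the knockouts and 45.6 and 52.5 in the controls. Bgn made up 44.5% and 51.1% of the sum in the knockouts and 69.3% and 76.7% in the controls. Lum made up 33.7% and 37.9% in the knockouts and 15.2% and 13.8% in the controls. The ratio of Bgn to Lum was 1.32 and 1.35 in the knockouts and 4.57 and 5.56 in the controls. These shares and ratios were not tested. They restate the levels of both genes and show unequal change, not which of them changed. In control libraries Bgn came first, then Lum, Fmod, Dcn and Kera, and no neighbours in this order overlapped between libraries. In knockout libraries Bgn and Lum kept the first places, and Kera, Fmod and Dcn overlapped.

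**Figure D3:**
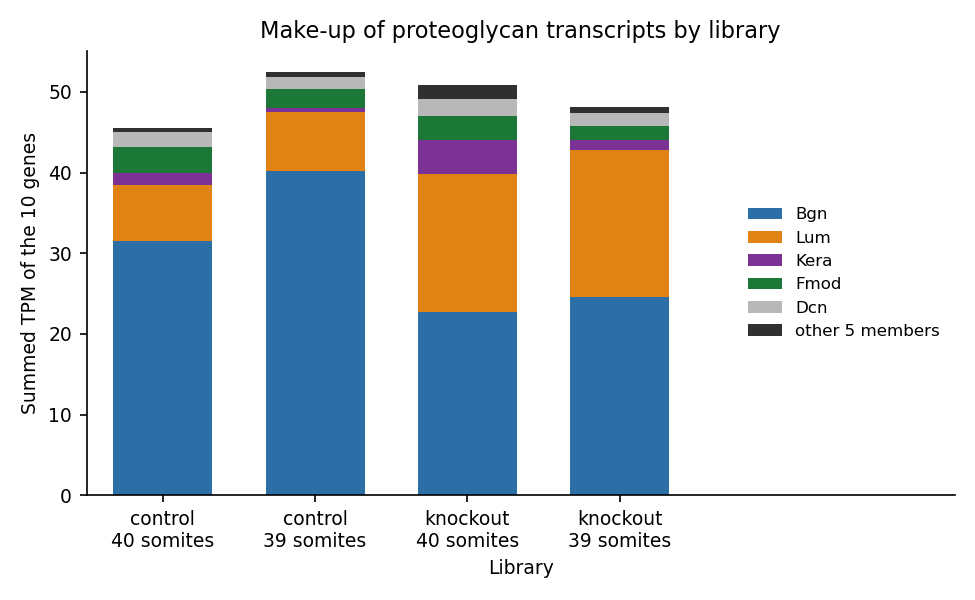
Summed TPM of the 10 genes in each library, stacked by gene from 0. The sums lie between 45.6 and 52.5 TPM, and Lum takes 33.7% and 37.9% of the sum in the knockouts against 15.2% and 13.8% in the controls.

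Lum sits in a chromosomal cluster with 3 other members, and it was the one of the 3 tested that passed. Epyc was under the filter. On chromosome 10 of mm10, Dcn (97479609 to 97518143), Lum (97565128 to 97572703), Kera (97606879 to 97613692) and Epyc (97644068 to 97682454) follow each other on the plus strand over 202.8 kb. Dcn ends 47.0 kb before Lum, and Kera starts 34.2 kb after it. The ratio of mean TPM, knockout to control, was 2.50 for Lum, 2.59 for Kera and 1.09 for Dcn. On the log2(TPM + 1) scale, which compresses the change of genes as low as Kera, the values were 1.21, 0.76 and 0.08, and with a pseudocount of 0.1 in place of 1 they were 1.31 for Lum and 1.17 for Kera. Kera varied more between libraries than Lum, and the differences between these neighbours were not tested. No other gene that passed the filter lies within 500 kb of the cluster. The nearest tested genes were Btg1, an antiproliferative gene, 856.8 kb to one side and the calcium pump gene Atp2b1 1232 kb to the other. Btg1 stood at 29.9 and 30.7 TPM in mutant limbs, against 31.2 and 38.0 TPM in control limbs, and Atp2b1 at 35.0 and 35.9 against 39.8 and 35.6 TPM. Neither passed (log2 fold changes -0.18 ± 0.13 and -0.09 ± 0.11; 2 embryos a group; adjusted p by limma = 0.640 and 0.822).

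**Figure D4:**
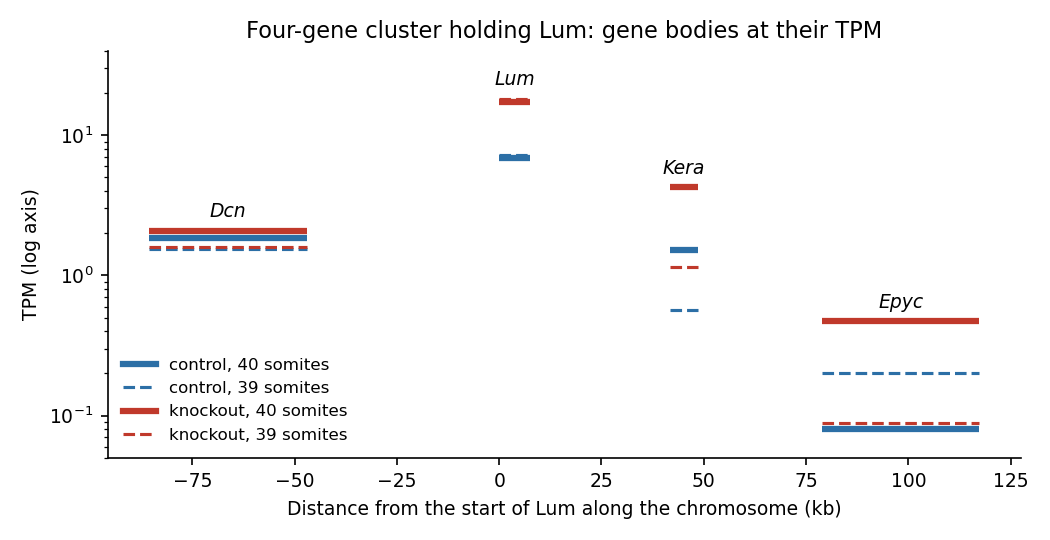
The 4 genes of the cluster that holds Lum, drawn as horizontal lines over their length in kb from the start of Lum, at their TPM in each library on a log axis. The knockout lines of Lum, at 17.2 and 18.2 TPM, stand clear of its control lines, at 6.91 and 7.23 TPM, while the lines of Dcn lie between 1.54 and 2.08 TPM.

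The other members lie in 2 further groups and alone. Prelp and Fmod lie on chromosome 1 with 14 tested neighbours within 500 kb, of which 0 passed. Their nearest tested neighbours, the calcium pump gene Atp2b4 and the antiproliferative gene Btg2, had log2 fold changes of -0.06 and -0.01. Aspn, Omd and Ogn lie on chromosome 13 inside Cenpp, a centromere protein gene on the opposite strand, with 10 tested neighbours, of which 0 passed. The nearest on either side were Tes3-ps and Nol8, the latter with a log2 fold change of 0.00. Tes3-ps stood at 0.0803 and 0.0865 TPM in mutant limbs, against 2.79 and 1.20 TPM in control limbs. Its log2 fold change was -1.42 ± 0.28 (adjusted p by limma = 0.0922), and ran from -1.81 to -1.02 with each library left out. Around Bgn 1 of 21 tested neighbours was called lower and 0 higher, against 0.492% of all genes called lower. This was Dusp9, a phosphatase gene that restrains MAP kinase, 143.5 kb beyond Bgn. Dusp9 fell in mutant limbs to 41.6 and 46.0 TPM, where control limbs stood at 86.4 and 92.1 TPM (log2 fold change -1.01 ± 0.11; 2 embryos a group; adjusted p by limma = 0.0201, and 0.0595 and 0.07055 without control replicate 1 or 2). Haus7, on the other side, had a log2 fold change of 0.07. Of all 45 tested neighbours 1 passed, where 1.30% of all tested genes did.

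Promoter sequences, 250 bases before to 50 after the start, were found in RefSeq (GRCm38.p6) for 8 of the 10 members, all but Lum and Dcn. That of Bgn is shown because Bgn is the most abundant member and its promoter was the one with a GC box. It is the plus strand of chrX:73483351-73483650, and capitals mark GGGCGG, the GC box bound by SP factors, found here on the minus strand.
Bgn promoter: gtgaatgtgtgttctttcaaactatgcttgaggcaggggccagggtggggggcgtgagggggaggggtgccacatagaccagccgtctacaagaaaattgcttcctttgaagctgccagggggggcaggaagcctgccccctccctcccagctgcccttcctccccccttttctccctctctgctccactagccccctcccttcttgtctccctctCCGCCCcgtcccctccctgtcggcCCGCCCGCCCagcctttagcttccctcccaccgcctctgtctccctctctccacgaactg
It held 3 matches, 2 of which overlap, and 63.7% of its bases were G or C, against a median of 52.7% over 32851 promoters. A GC box on either strand stood in 35.7% of all promoters. TATAAA, the letters of the TATA box, was found in the windows of Ogn and Aspn, and stood in 13.6% of all promoters. In Ogn and Aspn every match lay nearer to the upstream end of the window than to the start. Whether these letters act as a TATA box was not tested. TGGGTGGTC, a site of the GLI factors that the title of the series names, was found in no member's window and in 0.253% of all promoters.

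Among 8 further genes of the wider family, Tsku was the one expressed above the filter. It encodes tsukushi, a secreted modulator of BMP and WNT signals. It stood at 13.5 and 15.7 TPM in mutant limbs, against 11.9 and 15.5 TPM in control limbs, with overlapping groups. The log2 fold change was 0.09 ± 0.16, with a 95% interval from -0.31 to 0.49 (adjusted p by limma = 0.876). Podn, which encodes podocan, stood at 0.160 and 0.112 TPM in mutant limbs, against 0.445 and 0.331 TPM in control limbs, under the filter. Chadl stood between 0.451 and 0.690 TPM. Optc, Nyx, Chad, Podnl1 and Ecm2 were at or below 0.190 TPM in every library.

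The enzymes that build the sugar chains of these proteoglycans gave 0 calls over all genes in limma. Of 6 tested genes of the linker that joins every chondroitin, dermatan or heparan sulfate chain to its protein, 0 passed and 0 had an unadjusted p under 0.05. The 4 with the smallest p were B3galt6, B4galt7, B3gat3 and Xylt1, with log2 fold changes of -0.19, 0.16, -0.13 and -0.11. Of 12 tested chondroitin and dermatan sulfate enzymes 0 passed. An unadjusted p under 0.05 was reached by 4 of them, 0 higher and 4 lower, where 6.89% of all tested genes were lower. None of the 4 passed with stage as a block. Chst15, which adds a further sulfate to chondroitin sulfate, stood at 4.25 and 3.61 TPM in mutant limbs, against 6.31 and 6.59 TPM in control limbs. Chst11, the main chondroitin 4-sulfotransferase of cartilage, stood at 4.30 and 3.59 against 6.20 and 5.61 TPM. Their log2 fold changes were -0.60 ± 0.15 and -0.48 ± 0.15 (adjusted p by limma = 0.155 and 0.248, 2 embryos a group). Chst3 and Ust, a 6-O- and a 2-O-sulfotransferase gene, had log2 fold changes of -0.44 and -0.42. The list median was -0.03.

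Of 7 tested genes of keratan sulfate and tyrosine sulfation, the modifications carried by lumican, keratocan and fibromodulin, 0 passed, and 1 was lower at an unadjusted p under 0.05, where 6.89% of all tested genes were lower. B3gnt7, which extends keratan sulfate chains, stood at 0.508 and 0.409 TPM in mutant limbs, against 1.31 and 2.02 TPM in control limbs. Its log2 fold change was -0.86 ± 0.20 (adjusted p by limma = 0.131, and 0.0185 without knockout replicate 1). Chst5, Chst2 and the tyrosine sulfotransferase gene Tpst1 had log2 fold changes of -0.29, -0.14 and 0.10. The list median was -0.09.

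Collagen genes, whose products these proteoglycans bind, held 2 calls beside that of Lum, both higher. Col1a1, the alpha-1 chain of type I collagen, rose in mutant limbs to 45.1 and 58.5 TPM, where control limbs stood at 9.61 and 10.7 TPM (log2 fold change 2.23 ± 0.16; adjusted p by limma = 0.00694, 2 embryos a group). Col12a1, a fibril-associated collagen, rose from 3.85 and 3.76 TPM to 10.6 and 13.99 TPM (1.45 ± 0.17; adjusted p by limma = 0.0228, and 0.0745 and 0.0752 without control replicate 1 or 2). Of 12 tested collagens 2 were called higher and 0 lower, where 0.812% of all tested genes were called higher and 0.492% lower. Unadjusted p-values under 0.05 stood at 5 higher and 2 lower collagens, where the shares over all tested genes were 6.78% and 6.89%, and the list median was 0.13. Col1a2 stood at 157.6 and 173.5 against 93.9 and 121.7 TPM, and Col5a1, a minor chain of collagen fibrils, at 6.32 and 4.95 against 9.52 and 8.93 TPM. Neither passed (adjusted p by limma = 0.145 and 0.160). With stage as a block 4 collagens were called higher, Col1a1, Col12a1, Col1a2 and Col3a1, the last named after its values were seen, while 2.08% of all tested genes were called higher with the block. Without knockout replicate 1 there were 6 calls, where 5.04% of all tested genes passed, and Col1a2 and Col5a1 were among them (adjusted p by limma = 0.0261 and 0.0428).

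Of 3 tested genes of propeptide removal, 0 passed and 0 had an unadjusted p under 0.05. Bmp1, the protease that cleaves procollagen and probiglycan, stood at 44.5 and 46.1 TPM in mutant limbs, against 41.8 and 51.7 TPM in control limbs. Its helper genes Pcolce and Pcolce2 had log2 fold changes of 0.24 and 0.48. Of 13 tested growth factor and receptor partners 0 passed. Unadjusted p-values under 0.05 stood at 2 higher and 2 lower genes, where the shares over all tested genes were 6.78% and 6.89%, and the median was 0.00. Tgfb2 stood at 4.19 and 4.07 against 6.75 and 7.90 TPM, and Tgfb3 at 11.1 and 13.9 against 6.45 and 9.20 TPM. Both are ligands that decorin and biglycan bind. Their log2 fold changes were -0.70 ± 0.15 and 0.62 ± 0.20 (adjusted p by limma = 0.109 and 0.250). Egfr, a decorin receptor, had a log2 fold change of -0.80, and Bmp2 of 0.48. Tgfb3 was called higher with stage as a block (adjusted p by limma = 0.0474), where 2.08% of all tested genes were. With each library left out, the log2 fold change of Tgfb3 ran from 0.40 to 0.85 and that of Egfr from -1.08 to -0.51.

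**Figure D5:**
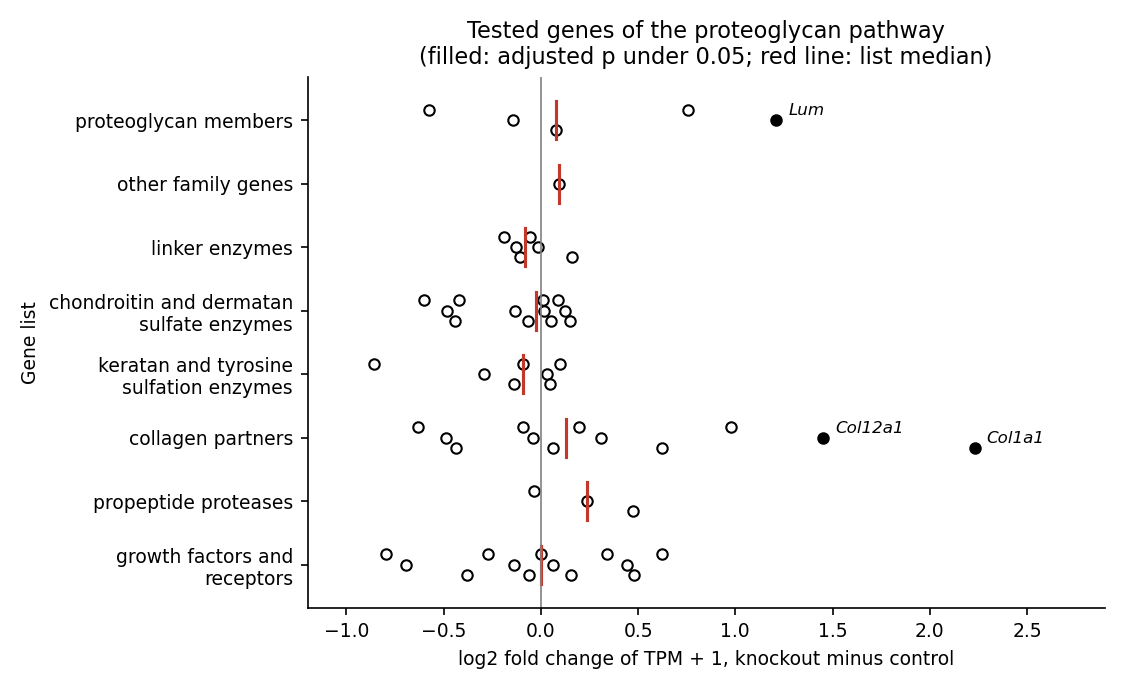
Log2 fold change of TPM + 1, knockout minus control, for each tested gene of the 8 lists, with filled points for a limma adjusted p under 0.05 and red lines for list medians. Lum, Col12a1 and Col1a1, at 1.21, 1.45 and 2.23, are the filled points.

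Smarcc1 fell in mutant limbs to 46.2 and 38.4 TPM, where control limbs stood at 112.0 and 119.6 TPM (log2 fold change -1.44 ± 0.13; adjusted p by limma = 0.0117, 2 embryos a group). Tbx5, the forelimb marker, stood between 31.9 and 43.1 TPM in all 4 libraries. The hindlimb genes Tbx4 and Pitx1 rose, Tbx4 from 4.52 and 6.07 to 15.5 and 19.3 TPM (adjusted p by limma = 0.0228, and 0.0635 without control replicate 1) and Pitx1 from at most 0.165 to 14.9 and 10.4 TPM (0.00422). In whole limb buds a higher level per cell and more cells of a type cannot be told apart.

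Among markers of the cell types that a limb bud can hold, few passed beside Lum. Of 7 listed markers of connective tissue and tendon 5 were tested and 1 was called higher, where 0.812% of all tested genes were. This was the joint and connective tissue regulator Osr2, in mutant limbs at 71.0 and 98.3 TPM, where control limbs stood at 28.1 and 31.1 TPM (log2 fold change 1.47 ± 0.17; adjusted p by limma = 0.0228, and 0.0781 and 0.0652 without control replicate 1 or 2). The summed TPM of the 7 was 128 to 171 in the knockouts and 95.02 to 95.2 in the controls, and none of them was at 0. Without Osr2 the other 6 summed to 57.3 and 72.4 TPM in mutant limbs, against 67.1 and 63.9 TPM in control limbs, which overlap. Both knockout libraries lay above both controls for 2 tested markers, Osr2 and Osr1, and below for 2, Scx and Mkx. Over all tested genes those shares were 22.7% and 21.2%. Osr1 stood at 17.4 and 20.7 TPM in mutant limbs, against 10.9 and 8.18 TPM in control limbs. It did not pass (log2 fold change 0.93 ± 0.17; adjusted p by limma = 0.0797). The tendon regulator Scx stood at 15.1 and 24.2 against 33.4 and 30.97 TPM and did not pass (log2 fold change -0.72 ± 0.22; adjusted p by limma = 0.222). With each library left out, the fold change of Scx ran from -1.04 to -0.40.

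Of 6 limb mesenchyme markers, all tested, Pdgfra was called higher, from 79.5 and 84.0 to 161.8 and 173.4 TPM (adjusted p by limma = 0.0165, and 0.0597 and 0.0524 without control replicate 1 or 2), and 0 were called lower. Over all tested genes 0.812% were called higher and 0.492% lower. With stage as a block Prrx1, at 129.9 and 139.8 against 188.2 and 201.1 TPM, was called lower (adjusted p by limma = 0.0293), where 2.08% of all tested genes were. The list was split. Both knockout libraries lay above both controls for 2 of the 6 markers and below for 3, Prrx1, Prrx2 and Meis2. Over all tested genes those shares were 22.7% and 21.2%. The list median was -0.13. Of 4 tested neuron markers 1 was called higher, where 0.812% of all tested genes were. This was the sensory neuron regulator Pou4f1, at 20.1 and 11.1 against 1.03 and 1.16 TPM (log2 fold change 2.93 ± 0.27; adjusted p by limma = 0.0119). The neuron sum was 22.1 to 31.1 TPM in the knockouts and 13.2 to 14.4 TPM in the controls, and without Pou4f1 it was 10.99 to 11.01 against 12.2 to 13.2 TPM.

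The other marker lists held 0 calls. Summed muscle progenitor markers were higher in both knockout libraries, at 34.02 to 37.2 TPM against 21.1 to 27.4 TPM, and so were erythroid markers, at 11544 to 12025 against 9621 to 10271 TPM. Of the 7 erythroid markers 3 lay higher in both knockouts than in both controls. Hbb-bs lay lower, at 28.4 and 29.2 against 36.2 and 37.6 TPM. With stage as a block Hba-a1 was called higher (adjusted p by limma = 0.0487), where 2.08% of all tested genes were. Cartilage markers summed to 129 to 141 against 124.5 to 127.3 TPM. Sums were lower in both knockout libraries for pericytes and smooth muscle, at 30.95 to 31.8 against 36.1 to 36.4 TPM, for macrophages, at 12.4 to 14.01 against 15.0 to 24.2 TPM, and for neural crest and Schwann cells, at 10.7 to 12.8 against 14.5 to 15.1 TPM. The pericyte and smooth muscle genes did not move together. Of 5 tested, 2 lay higher in both knockouts than in both controls, Rgs5 and Cspg4, and 1 lower, Tagln. Over all tested genes those shares were 22.7% and 21.2%. Foxd3 of the neural crest list was at 0 in both controls. Endothelial sums overlapped, at 60.1 to 85.4 against 45.1 to 84.7 TPM. Surface ectoderm sums overlapped between the genotypes, at 439.2 and 278.3 against 558.4 and 364.7 TPM, and the knockout was the lower library at each stage. With stage as a block 2 of the 8 ectoderm markers, Cldn6 and Perp, were called lower (adjusted p by limma = 0.0230 and 0.0251), where 2.08% of all tested genes were. The part of these cell types in the level of Lum was not tested.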

How the data were processed

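Each of the 4 libraries was made from the forelimb pair of a single embryo, from 310 to 580 ng of RNA with an RNA integrity number of 10, per the labels. The authors deposited TPM values for 35727 Ensembl gene identifiers in 4 columns, 1 per library. Salmon 1.9.0 and mm10 are named in the submitters' processing notes. Neither the transcripts used nor how they were added up per gene is given in the sources used here. TPM keeps no depth, so precision rests on the spread between embryos. One column name carries an extra letter that its sample title lacks.

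Symbols were matched for 35422 identifiers (99.1%), and 38 repeated symbols were summed. The test, limma 3.58.1 in R 4.3.3 on log2(TPM + 1), took the 12809 genes that reached 1 TPM in 2 or more libraries (variance trend, two-sided, Benjamini-Hochberg adjustment over all genes, threshold 0.05, no covariates). Fold changes on this scale understate the change of low genes. Coordinates are from GENCODE vM21 on mm10, counted from 1. Where a library was left out, the lone library of that genotype is assumed to vary like the others.

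Named were all members and the 8 further family genes, Smarcc1, Tbx5, Tbx4, Pitx1, and in each list the genes that passed and up to 4 with the smallest p, likewise for neighbours that passed or lay next to a cluster. Other genes, and the markers named, were picked with their values in view. The members and lists were chosen with earlier results of these data known. Alternatives were pseudocounts of 0.1 and 5, no filter, a filter at 5 TPM, median-ratio and quantile scaling, somite stage as a block, no trend, robust variance, a threshold of 0.1, protein-coding genes only, and each library left out.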

Additional observations from a re-analysis of the deposited data

Results flagged for a closer look

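For 3 members the knockout lay above the control at one somite stage and below it at the other, with 1 embryo per genotype at each stage, so the difference was not tested. All 3 were at or below 1.01 TPM in every library. For Ogn knockout minus control in log2(TPM + 1) was 0.73 at 40 somites and -0.02 at 39, which are 0.74 apart. For Epyc it was 0.45 at 40 somites and -0.14 at 39, which are 0.59 apart. For Prelp it was -0.09 at 40 somites and 0.13 at 39, a gap of -0.22.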

How the results depend on the processing

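Over all genes 167 passed. The count was 0 by limma with no filter on low values (genes at 0 in every library left out; 2338 of 20946 genes had an unadjusted p under 0.05, and Smarcc1 itself had an adjusted p of 0.111), 533 with somite stage as a replicate block, 275 with a robust variance, 291 among protein-coding genes only, 316 at a threshold of 0.1, and 50 to 646 when each library was left out. Keeping the genes at 0 in every library, chosen after seeing the data, gave 170 calls, of which 2 were among the 167, and the cause was not tested.

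Of the members 1 passed, Lum. The count was 0 with no filter in either form, 2 with stage as a replicate block (Lum and Bgn), and 0 to 2 when each library was left out. The fold change of Lum ran from 0.91 to 1.31 over 16 alternatives. For collagens, 2 without changes to the processing, the count was 0 with no filter in either form, 4 with the block and 1 to 6 without each library. For growth factors and receptors it was 1 with the block and 0 to 2 without each library, and for keratan sulfate and tyrosine sulfation enzymes 0 to 1 without each library. For cluster neighbours, 1 at first, it was 0 with no filter in either form, 2 at a pseudocount of 0.1, without the trend or with a robust variance, 3 among protein-coding genes or at a threshold of 0.1, and 0 to 4 without each library. The further family, linker, chondroitin and dermatan, and protease lists kept a count of 0 in every alternative run. The cause of these shifts was not tested, other than that leaving out a library leaves stage unbalanced.

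Of 770 single-gene values under the alternatives 694 kept direction and call, 31 lost and 23 gained a call, and 22 changed sign, none of them a called gene. Nol8 was at -0.014 under median-ratio scaling and -0.027 under quantile normalization. The others changed sign only when a library was left out. Over those fits the log2 fold change ran from -0.045 to 0.20 for Dcn, -0.40 to 0.11 for Fmod, -0.080 to 0.27 for Tsku, -0.39 to 0.0055 for B3galt6, -0.047 to 0.37 for B4galt7, -0.29 to 0.035 for B3gat3, -0.31 to 0.040 for Chst2, -0.11 to 0.58 for Pcolce, -0.19 to 0.11 for Bmp1, -0.062 to 0.19 for Haus7, -0.097 to 0.072 for Btg2, -0.045 to 0.045 for Nol8 and -0.26 to 0.16 for Tbx5. The block pairs libraries by somite stage in the labels, not by replicate number. Differences between the stages correlated between the genotypes over 12809 genes (Pearson 0.25, Spearman 0.36), which are not independent replicates. Read depth is unknown, so how far it limits the members under 1 TPM cannot be given.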
